A study of Mus musculus with 96 samples.

Results

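The mitotic and replication genes described here are 45 protein-coding genes that dividing cells switch on together. They were chosen by symbol, with earlier results of these data known. GENCODE M21 matched them to rows of a count table that lists 54833 features. All 45 members were found, each as 1 row. They comprise the cyclins and kinases of mitotic entry, the spindle checkpoint and the anaphase-promoting complex, the chromosomal passenger complex, spindle motors, cytokinesis proteins, chromosome proteins and 4 genes of DNA replication. The 96 libraries of total RNA came from liver, kidney, forebrain and cerebellum of wild-type (WT) male C57BL/6 mice aged 6 to 8 weeks. Control animals (CON) were not put in the device, and sleep deprivation (SD) was imposed for 10 h, in the hours when mice mostly sleep, by a motor-driven drum that kept the animals walking. Food and water stayed within reach. Collection followed at 6 circadian times, every 4 h from CT4 to CT24, in 2 replicates for each tissue, condition and time. The paper states that mice were in constant darkness during collection. The drum forces walking as well as wakefulness, and no group walked without losing sleep, so these cannot be told apart.

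Cells that leave rest first switch on the enzymes that supply nucleotides and load the replicative helicase, and later the cyclins, kinases and motors that build the spindle and split the cell. The later set is held down in resting cells by the DREAM complex, which binds a promoter element called the cell cycle homology region (CHR), and is raised in G2 and mitosis by B-MYB and FOXM1. The earlier set is controlled by E2F factors. Hepatocytes of an adult mouse rarely divide, so in bulk liver these transcripts come from a minor share of the cells, among them immune cells as well as hepatocytes. In bulk tissue, fewer cycling cells and less RNA per cycling cell cannot be told apart.

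RefSeq promoter windows (GRCm38.p6; 250 bases before to 50 bases after the annotated start, on the strand of the gene) were at hand for 40 members, with 42 windows since Prc1 and Ect2 have a pair each. The CHR letters TTTGAA, sought on both strands, were in 33 of 42 member windows and in 17.9% of all 32851 windows. The CCAAT letters, the box bound by NF-Y, were in 34 of 42 member windows and in 37.4% of all windows. Both occurred in 28 of 42 member windows and in 6.95% of all windows. The CHR variant TTTAAA was in 10 of 42 and in 13.2% of all windows. The E2F forms TTTCCCGC, TTTCGCGC, TTTGCCGC and TTTGGCGC, the second and the last of which can overlap on opposite strands, were in 2, 2, 0 and 3 of the 42 windows, against 1.07%, 0.323%, 0.441% and 0.514% of all windows. Of the 4 replication genes, only Mcm2 had TTTGAA, and all 4 had CCAAT. These counts describe letters in a window and not binding.

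The 160 bases before the start are shown for 6 members that recur below, so that the spacing of these letters can be compared. Capitals mark both CHR forms, the CCAAT box and the E2F forms on either strand.
Cdk1 (chr10:69352913-69353072, minus strand): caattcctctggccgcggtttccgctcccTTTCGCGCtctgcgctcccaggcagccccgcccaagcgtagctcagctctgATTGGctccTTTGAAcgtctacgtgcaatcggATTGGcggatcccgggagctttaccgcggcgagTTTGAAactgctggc
Ccnb1 (chr13:100786487-100786646, minus strand): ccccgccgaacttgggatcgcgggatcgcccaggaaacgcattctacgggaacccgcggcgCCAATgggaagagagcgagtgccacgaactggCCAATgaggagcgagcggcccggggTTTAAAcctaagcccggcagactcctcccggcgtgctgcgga
Cdc20 (chr4:118437344-118437503, minus strand): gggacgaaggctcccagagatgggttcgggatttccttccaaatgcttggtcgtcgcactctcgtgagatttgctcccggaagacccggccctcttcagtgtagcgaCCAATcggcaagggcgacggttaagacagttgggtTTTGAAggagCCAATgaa
Mki67 (chr7:135716380-135716539, minus strand): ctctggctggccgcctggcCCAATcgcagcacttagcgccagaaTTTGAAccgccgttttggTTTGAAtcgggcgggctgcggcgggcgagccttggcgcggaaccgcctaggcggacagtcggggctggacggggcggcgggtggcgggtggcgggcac
Top2a (chr11:99024190-99024349, minus strand): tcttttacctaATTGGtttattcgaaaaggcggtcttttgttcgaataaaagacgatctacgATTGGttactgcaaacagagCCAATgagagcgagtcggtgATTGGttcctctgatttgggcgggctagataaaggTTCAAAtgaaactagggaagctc
Mcm5 (chr8:75109349-75109508, plus strand): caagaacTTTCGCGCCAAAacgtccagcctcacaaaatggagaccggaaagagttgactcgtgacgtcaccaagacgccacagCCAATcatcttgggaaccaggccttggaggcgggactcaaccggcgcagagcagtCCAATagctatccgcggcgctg
In the 5 mitotic promoters a CHR form begins at positions -116 to -15 from the start. Each also has at least 1 CCAAT box, read on either strand, in the bases shown. In Mki67 the only CCAAT box begins at -141, ahead of both its TTTGAA copies. Mcm5 has 2 overlapping E2F forms, which begin at positions -153 and -149, and no CHR form in the bases shown. TTTAAA does occur elsewhere in its full window. An E2F form is not particular to replication genes, as Cdk1 has one at -131, while Mcm2 and Rrm2 have none in their windows.

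Depth, the sum of gene counts in units of 1000000, was 32.0 to 48.9 in liver, 32.2 to 58.5 in kidney, 28.997 to 47.989 in forebrain and 24.8 to 30.9 in cerebellum. Values are given in CPM, the counts of a gene per 1000000 gene counts of its library, and levels of different genes are compared only per kilobase of exon. The defining markers were present in each labelled organ. The summed CPM of 8 hepatocyte genes was 74560 to 101700 in liver and 2028 to 3118 in kidney, and that of 7 kidney tubule genes was 22590 to 29470 in kidney and at most 5.22 in liver. Fold changes are log2 of SD over CON from edgeR's quasi-likelihood fit with TMM scaling, and a gene was called at a Benjamini-Hochberg adjusted p below 0.05 over all genes tested. In liver the mean log2 TMM factor was 0.07 in CON and -0.07 in SD, so a fall in CPM is somewhat larger than the fitted fall. The labels do not say which tissues came from the same animal.

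In liver, the set was lower in SD almost as a whole. Averaged over the 6 times, 40 of the 44 members tested were lower in SD, and none was higher. Among all 19708 liver genes tested, 8.80% were lower and 9.42% higher. The members were chosen with earlier results of these data known, so the excess over that share is not independent evidence. The median log2 fold change was -1.06 over the members and 0.01 over all genes, and all 44 estimates were negative. Ccnb2, a B-type cyclin, had too few counts to test, with at most 0.154 CPM in any liver library. Whether counting missed reads of this gene was not tested. Aurka, Cdca3, Bub1b and Ect2 were tested and not called. With 12 libraries per condition pooled over time, CPM ranges overlapped for every tested member except Mcm3. Ranges were apart in this direction for 0.335% of all genes.

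**Figure D1:**
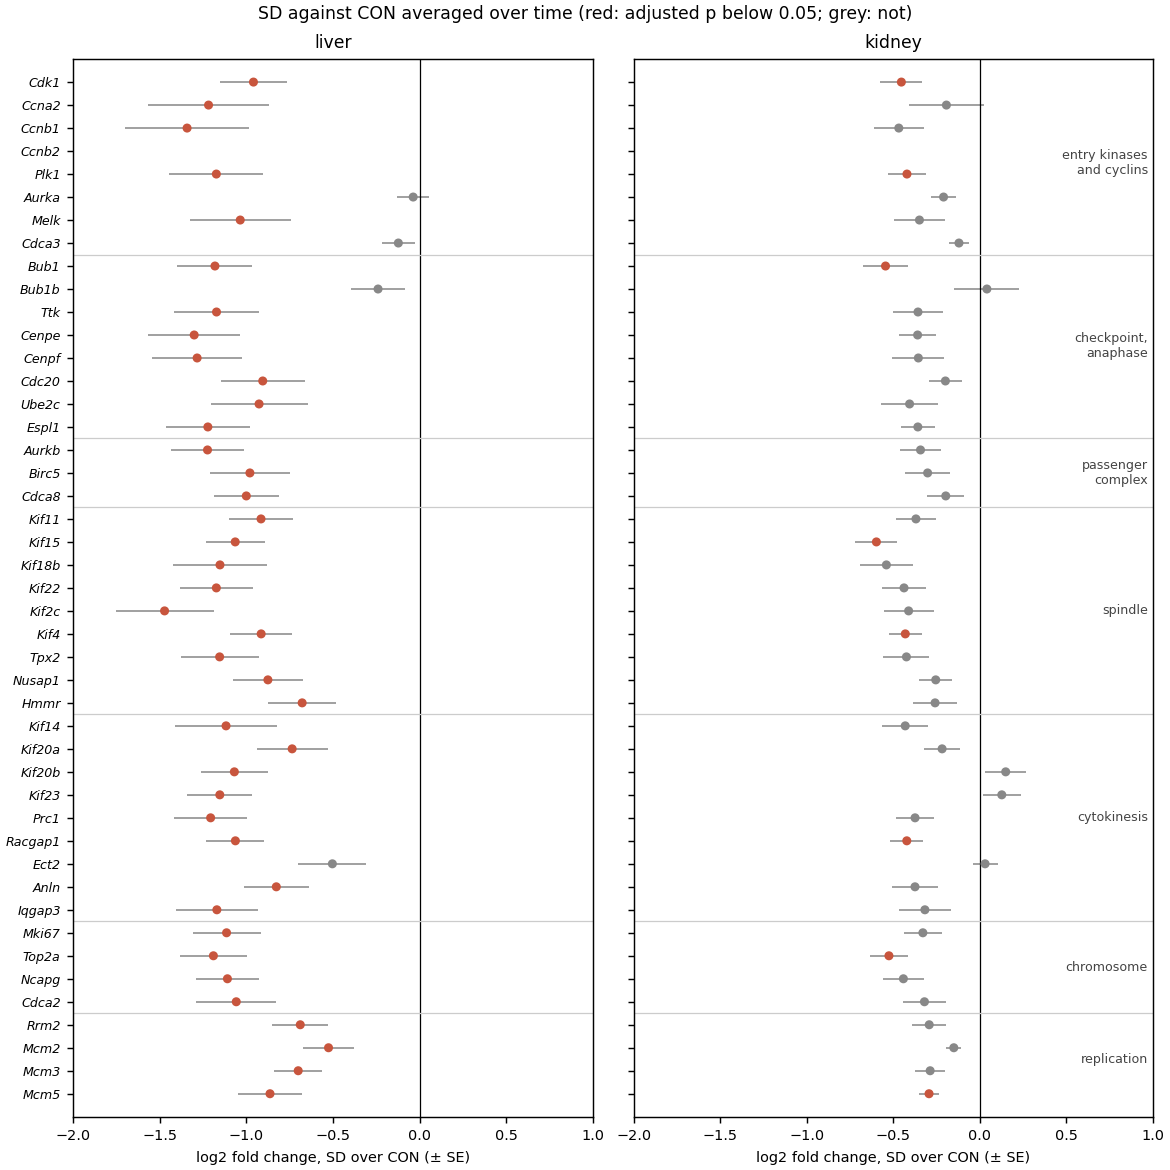
Log2 fold change of SD over CON averaged over 6 circadian times (x axis, points with standard errors) for the members (rows, grouped by role) in liver and kidney, from 12 libraries per condition; red points have an adjusted p below 0.05 and grey points do not. In liver 40 members are red, all to the left of 0, and in kidney 8 are red, between -0.60 and -0.29; Ccnb2 was not tested.

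Among the entry cyclins and kinases, 5 of 7 tested members fell. Cdk1, the kinase whose activity starts mitosis, ranged from 6.11 to 22.9 CPM with a median of 8.87 in CON and from 1.78 to 7.82 CPM with a median of 4.38 in SD. Its log2 fold change was -0.96 ± 0.20 (SE; adjusted p = 0.00142). Ccnb1, cyclin B1 and partner of CDK1, ranged from 2.94 to 23.0 CPM around a median of 4.09 in CON and from 0.205 to 7.36 around 1.91 in SD, a change of -1.34 ± 0.36 (adjusted p = 0.0103). The ranges of both genes overlapped. For Cdk1 the highest SD libraries reached the lower CON libraries, and for Ccnb1 the highest SD library, at 7.36 CPM, lay above the CON median of 4.09. Ccna2, cyclin A2, was rare at 0.240 to 1.16 CPM in CON and 0 to 0.718 in SD and changed by -1.22 ± 0.35. Plk1, the polo-like kinase of centrosomes and kinetochores, changed by -1.17 ± 0.27, and Melk, a kinase that rises in G2, by -1.04 ± 0.29. Aurka, the centrosomal Aurora kinase, was the role's most abundant member per length, at 6.22 CPM per kilobase in CON. It did not pass, with 11.95 to 27.9 CPM in CON, 10.2 to 18.6 in SD and a log2 fold change of -0.04 ± 0.09 (adjusted p = 0.833). Cdca3, an adaptor for degradation of the WEE1 kinase, was at -0.12 ± 0.09 and did not pass either.

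The checkpoint and anaphase group had 7 of 8 members called. Cdc20, the activator of the anaphase-promoting complex and the most abundant of the group per length (5.86 CPM per kilobase in CON), ranged from 5.27 to 36.9 CPM with a median of 9.14 in CON and from 1.91 to 14.6 with a median of 4.48 in SD. Its change was -0.91 ± 0.24 (adjusted p = 0.0110). The kinetochore genes fell further, Cenpe, a motor that gathers chromosomes, by 1.30 on the log2 scale and Cenpf, a kinetochore matrix protein, by 1.28, with adjusted p of 0.00137 and 0.00130. Espl1, which encodes separase, the protease that opens the cohesin ring, ranged from 2.15 to 10.5 CPM in CON and from 0.468 to 2.89 in SD and changed by -1.22 ± 0.24 (adjusted p = 0.00117). The checkpoint kinases Bub1 (-1.18 ± 0.22) and Ttk (-1.17 ± 0.25) and the ubiquitin-conjugating enzyme Ube2c (-0.93 ± 0.28) also fell. Bub1b, a further checkpoint kinase, did not pass at -0.24 ± 0.16, with medians of 8.70 CPM in CON and 8.22 in SD.

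All 3 members that belong to the chromosomal passenger complex fell. Aurkb, its kinase, ranged from 1.85 to 10.6 CPM with a median of 4.21 in CON and from 0.966 to 3.005 with a median of 1.56 in SD (-1.22 ± 0.21, adjusted p = 0.000360). Birc5, which encodes survivin, changed by -0.98 ± 0.23 and Cdca8, which encodes borealin, by -1.001 ± 0.19.

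All 9 spindle genes were lower in SD. Kif2c, a kinesin that takes apart microtubule ends at kinetochores, had the largest change of the 44 members tested, from a CON range of 1.598 to 7.62 CPM and median of 2.28 to an SD range of 0.142 to 2.94 and median of 0.837 (-1.47 ± 0.28, adjusted p = 0.000873). Hmmr, a spindle assembly factor and the role's most abundant member per length over CON and SD libraries together, had the smallest change of the role, from 4.22 to 22.2 CPM in CON to 1.99 to 7.498 in SD (-0.68 ± 0.19, adjusted p = 0.0169). Between them lay Kif11, the motor that pushes the poles apart (-0.92), Kif15, which can stand in for it (-1.06), Kif18b (-1.15), the chromosome-bound motors Kif22 (-1.17) and Kif4 (-0.92), the Aurora A activator Tpx2 (-1.16) and the microtubule bundler Nusap1 (-0.88).

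Of the 9 cytokinesis genes, 8 fell. Prc1, which bundles the central spindle, ranged from 4.36 to 23.1 CPM around 6.45 in CON and from 0.879 to 6.37 around 3.39 in SD (-1.21 ± 0.21, adjusted p = 0.000371). Its partners in the central spindle, Kif23 and Racgap1, changed by -1.15 ± 0.19 and -1.06 ± 0.17. Also called were Iqgap3, a scaffold for small GTPases (-1.17), the midbody motors Kif14 (-1.12) and Kif20b (-1.07), the ring scaffold Anln (-0.83) and Kif20a, which carries the passenger complex to the central spindle (-0.74). Ect2, the exchange factor that activates RhoA at the furrow, was the most abundant of them per length and missed the threshold, with 9.80 to 32.6 CPM in CON, 4.62 to 15.2 in SD and -0.50 ± 0.20 (adjusted p = 0.0763).

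The 4 chromosome genes fell by similar amounts. Mki67, which encodes the proliferation antigen Ki-67, ranged from 16.6 to 56.2 CPM with a median of 24.6 in CON and from 4.04 to 26.5 with a median of 10.5 in SD (-1.11 ± 0.20, adjusted p = 0.000402). Top2a, topoisomerase II alpha, which untangles sister chromosomes, ranged from 19.2 to 72.0 CPM with a median of 27.0 in CON and from 5.47 to 20.3 with a median of 13.1 in SD (-1.19 ± 0.19, adjusted p = 0.000208). Only the highest SD libraries of Top2a overlapped the lowest CON libraries. Ncapg, a condensin subunit, changed by -1.11 ± 0.18 and Cdca2, a phosphatase adaptor of anaphase chromatin, by -1.06 ± 0.23. An annotated small RNA gene, Gm23451, overlaps Top2a on the same strand.

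The 4 replication genes fell less, with log2 fold changes of -0.53 to -0.86 against a median of -1.06 for all members. Rrm2, the regulated subunit of ribonucleotide reductase, had the highest level per length of all members, 9.10 CPM per kilobase in CON. It ranged from 12.7 to 53.3 CPM in CON and from 8.13 to 19.9 in SD (-0.69 ± 0.16, adjusted p = 0.00428). The helicase subunits Mcm2, Mcm3 and Mcm5 changed by -0.53 ± 0.14, -0.70 ± 0.14 and -0.86 ± 0.18. Mcm3 was the member whose ranges were apart, with at least 13.2 CPM in CON and at most 12.7 CPM in SD. Whether the replication genes differed in change from the mitotic genes was not tested.

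**Figure D2:**
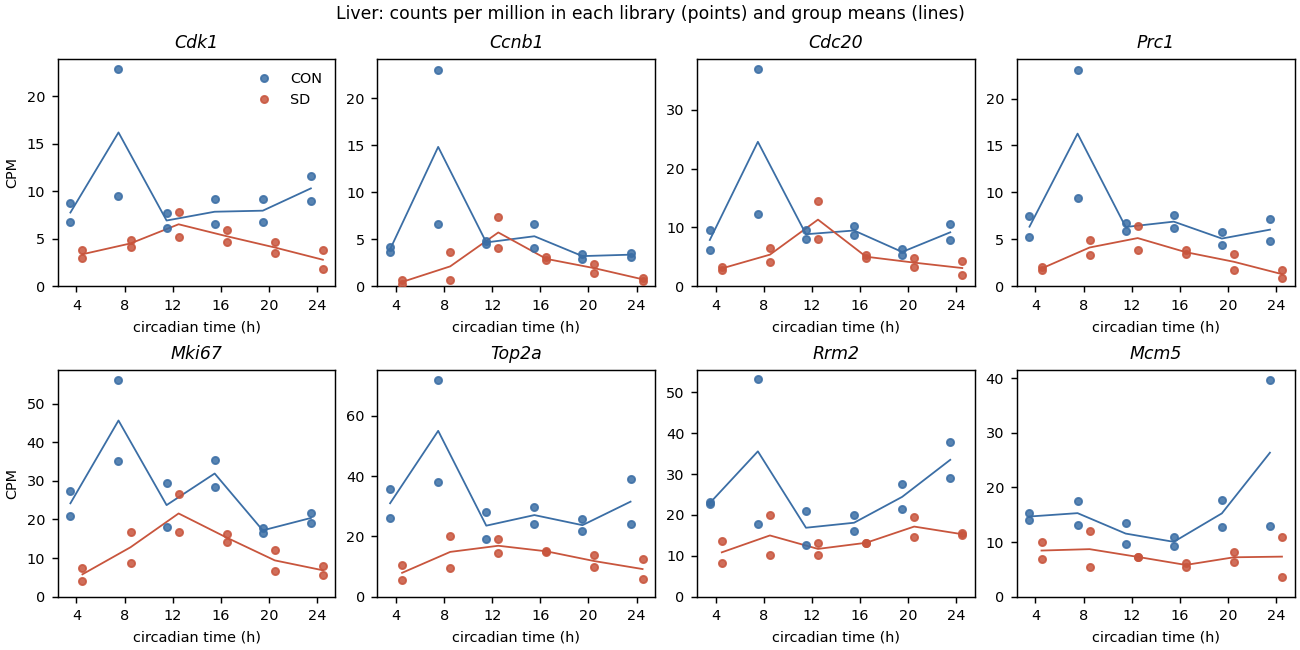
CPM (y axis) of 8 members in each of the 24 liver libraries by circadian time (x axis, h), with CON in blue, SD in red, lines through the means of 2 libraries and points shifted sideways for visibility. The gap is wide at CT4, CT8 and CT24 and nearly closed at CT12 for the mitotic genes, while 1 CON library at CT8 and 1 at CT24 (Mcm5) stand far above the rest.

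The estimates for liver are given here for each time, with 2 libraries per group. In every tissue, each circadian time in SD is also a different time since the drum stopped. Time of day and time since deprivation therefore cannot be told apart. Whether the effect of SD itself differed between times was tested only as a difference in 24 h rhythm, which called no member. The median member log2 fold change was -1.60 at CT4, -1.73 at CT8, -0.02 at CT12, -0.66 at CT16, -0.68 at CT20 and -1.47 at CT24. At CT12, 22 of 44 estimates were negative, against 42 to 44 at every other time. Tested 1 time at a time, 1 member passed at CT4 (0.00507% of all genes were called lower), 13 at CT8 (0.386%), none at CT12, CT16 and CT20 (0% at each) and 2 at CT24 (0.198%). At an unadjusted p below 0.05 the member counts were 36, 39, 0, 6, 13 and 40 of 44 in the order of time, against 9.19%, 12.3%, 7.66%, 13.8%, 7.98% and 13.3% of all genes. The count at CT16 was near that background. The joint test over the 6 times called 31 of 44 members, against 3.56% of all genes.

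The member called at CT4 was Kif23, the motor of the central spindle. It was at 2.41 and 3.54 CPM in the 2 CON libraries and at 0.433 and 0.527 in the 2 SD libraries, a log2 fold change of -2.53 ± 0.36 (adjusted p = 0.0184). Without CON CT4 replicate 2 or SD CT4 replicate 2, no member was called at CT4. At CT8 the largest called changes were those of Cenpf (-2.65 ± 0.49), Kif18b, a motor that shortens astral microtubules (-2.63 ± 0.43), Bub1 (-2.18 ± 0.46), Cdc20 (-2.08 ± 0.44) and Tpx2 (-2.07 ± 0.42), with adjusted p of 0.0298 to 0.0472. Prc1, Kif20a, Racgap1, Nusap1, Cdk1, Mki67, Anln and Kif23 were also called there. At CT24, Prc1 was at 4.85 and 7.19 CPM in CON and at 1.68 and 0.878 in SD (-2.11 ± 0.43, adjusted p = 0.0495). Racgap1 was at 5.42 and 6.91 CPM in CON and at 2.18 and 1.68 in SD (-1.54 ± 0.32, adjusted p = 0.0495).

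Within SD livers, Ccnb1 and Cdc20 were highest at CT12. Ccnb1 was at 0.683 and 0.205 CPM in SD at CT4, at 4.06 and 7.36 at CT12 and at 0.914 and 0.543 at CT24. In CON it was at 3.68 and 4.15, then at 4.53 and 4.77, and at 3.54 and 3.15 at the same times. Cdc20 in SD was at 3.30 and 2.72 CPM at CT4, at 8.08 and 14.6 at CT12 and at 4.25 and 1.91 at CT24. The replication genes did not share this course, as Mcm5 in SD was at 10.0 and 6.85 CPM at CT4, at 7.32 and 7.25 at CT12 and at 10.97 and 3.695 at CT24.

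**Figure D3:**
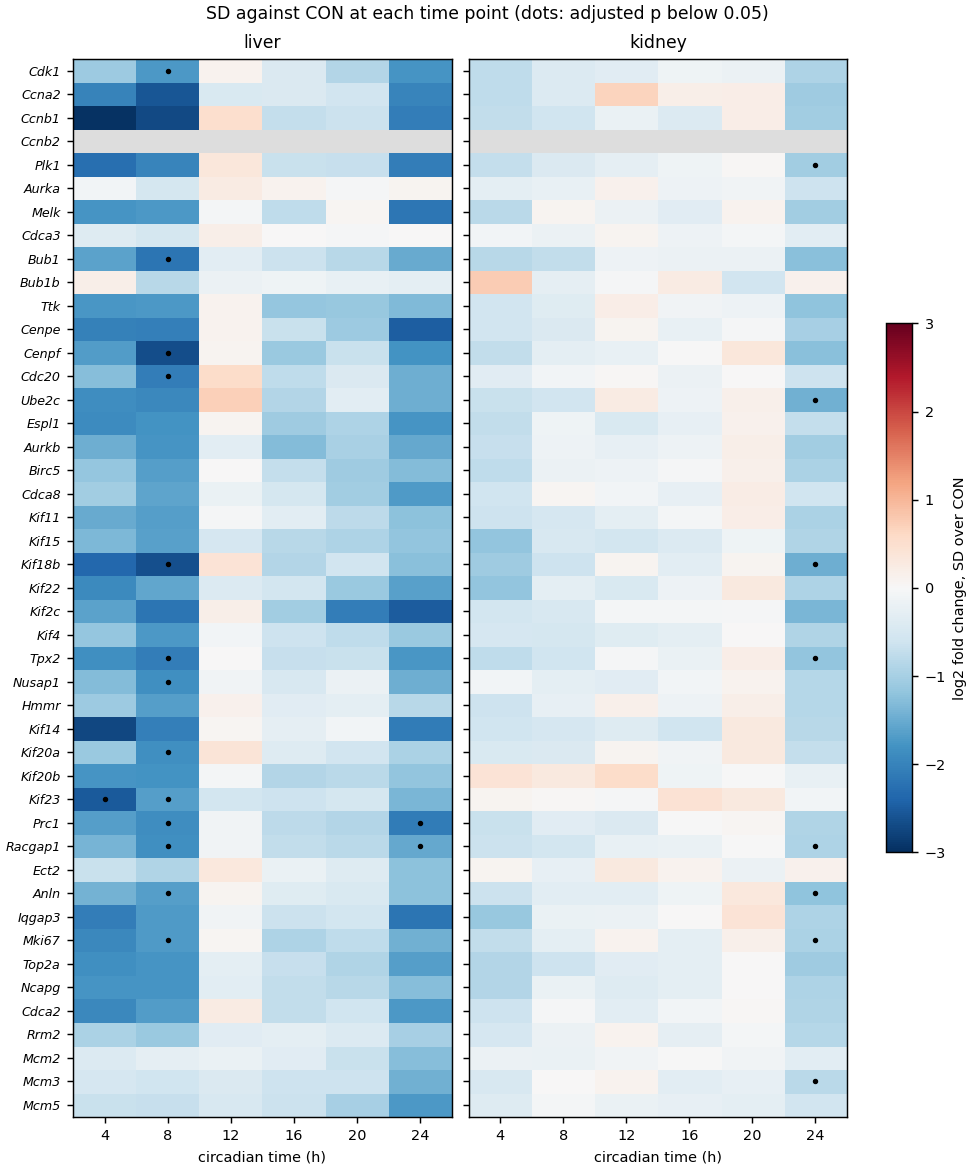
Log2 fold change of SD over CON (colour, blue lower in SD) for each member (rows) at each circadian time (columns, h) in liver and kidney, 2 libraries per condition and time; dots mark an adjusted p below 0.05 and grey rows were not tested. Liver is blue at CT4, CT8 and CT24 and pale at CT12, and kidney is blue at CT4 and CT24 and pale from CT12 to CT20.

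A single library contributed much of the CT8 gap. The CON CT8 replicate 1 liver library was the highest CON library for 38 of 44 tested members. Its summed CPM over the 41 mitotic members was 659, against 186 to 321 in the other 11 CON libraries and 73.0 to 251 in the 12 SD libraries. Ccnb1 was at 23.0 CPM there and at 6.61 in replicate 2. Its macrophage and lymphocyte lists summed to 1053 and 89.5 CPM, within CON ranges of 874 to 1694 and 82.5 to 152. Which cells gave its high member values was not tested. A second library, CON CT24 replicate 2, was the highest CON library for Mcm2, Mcm3 and Mcm5, with 36.4, 43.1 and 39.7 CPM, against at most 17.2, 19.5 and 17.7 in the other CON libraries. Without both of these libraries, 39 of 44 members were still called in the time-averaged comparison, with a median log2 fold change of -0.92. The member count at CT8 then fell to 1, that at CT24 to 0 and that of the joint test to 19. Among SD libraries, CT12 replicate 2 was the highest for 30 members, and CT4 replicate 2 and CT24 replicate 2 were the lowest for 22 and 18.

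Within conditions, a 24 h rhythm was sought with a newly written version of JTK_CYCLE, a rank test against cosine shapes. Only 1 cycle was sampled, so in SD a rhythm cannot be told apart from a change with time since deprivation. In CON liver it called none of 44 members (0.151% of all genes), with 4 at an unadjusted p below 0.05 (12.8% of all genes), and edgeR's cosinor fit called 2, Nusap1 and Racgap1 (9.13% of all genes). In SD liver JTK_CYCLE called 2 members, Kif23 and Anln, both at an adjusted p of 0.0404 (1.86% of all genes). Unadjusted, 20 of 44 SD members had p below 0.05 (17.1% of all genes), of which 18 had a peak at CT12 and 2 at CT16. The cosinor fit called 22 of 44 in SD, all of them mitotic genes (12.9% of all genes). The difference in rhythm between SD and CON, tested itself, was called for none of 44 members by edgeR (0% of all genes), with 23 members at an unadjusted p below 0.05 (3.66% of all genes), and for 1 member by DESeq2. More members were called in the fit without a filter, as given in the last section. The count thus depended on the filter, and a rhythm particular to SD was not shown.

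Other genes of the pathway were also lower in SD liver, on lists likewise chosen with earlier results of these data known. Of all liver genes tested, 8.80% were lower and 9.42% higher. Of 43 tested mitotic genes outside the set, 35 were lower and none higher, with a median log2 fold change of -0.83. The largest falls were those of Sgo2a, which guards centromeric cohesin (-1.36 ± 0.24), and Depdc1a (-1.32 ± 0.34). Of 42 further replication and S phase repair genes, 26 were lower and 1 higher, with a median of -0.41. Clspn, a replication fork protein, changed by -1.34 ± 0.25, Uhrf1, which recruits DNA methyltransferase to new DNA, by -1.18 ± 0.22, and Pcna, the polymerase clamp, by -0.30 ± 0.09 (adjusted p = 0.0144). Mcm10, which helps to activate the helicase, rose from 41.2 ± 17.9 to 51.1 ± 14.0 CPM (mean ± standard deviation, n = 12), a log2 change of 0.49 ± 0.13 (adjusted p = 0.0104).

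Regulators of G1 and inhibitors moved less. Their counts stand beside 8.80% lower and 9.42% higher among all liver genes, and whether either list differed from these shares was not tested. Among 21 G1 cyclins, kinases and transcription factors, 6 were lower and none higher, with a median of -0.12. Foxm1, the activator of late mitotic genes, fell from 4.74 ± 2.31 to 2.12 ± 0.98 CPM (mean ± standard deviation, n = 12), a log2 change of -1.04 ± 0.20 (adjusted p = 0.000852). E2f2 changed by -0.72 ± 0.11. Ccnd1, cyclin D1, was at -0.21 ± 0.14 and did not pass (adjusted p = 0.342), and E2f1 had too few counts to test. Among 16 inhibitors and p53 targets, 3 were lower and none higher: Pkmyt1, a kinase that holds CDK1 inactive (-0.84 ± 0.16), Cdkn1a, which encodes the inhibitor p21 (-0.46 ± 0.11, adjusted p = 0.00472), and Mdm2 (-0.13 ± 0.04). Wee1, a further CDK1-inhibiting kinase under clock control, was at -0.33 ± 0.12 (adjusted p = 0.0614).

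Markers of immune cells were lower in the same SD livers, where 8.80% of all genes were lower and 9.42% higher. Of 7 macrophage markers, 6 were lower, with a median log2 fold change of -0.44, and their summed CPM was 874 to 1694 in CON and 604.5 to 1006 in SD. Of 10 lymphocyte markers, 8 were lower (median -0.56), and the sums were 82.5 to 152 and 38.65 to 74.4 CPM. These sums largely follow Ptprc, a gene of white blood cells in general, with means of 78.3 CPM in CON and 42.3 in SD. Every other gene of that list had a mean of at most 4.07 CPM. Of 6 tested neutrophil markers, 3 were lower (median -0.95), with sums of 4.31 to 14.1 and 1.65 to 10.6 CPM, and the granule genes Elane and Prtn3 were under 0.1 CPM at the median. Of 6 tested red cell precursor genes, none was called (median 0.13), and sums were 127.9 to 278.5 and 134.5 to 301.0 CPM. Of 8 hepatocyte markers, 6 were higher (median 0.27). Of 6 endothelial markers 1 was lower, of 6 stellate markers 2 were higher and of 5 bile duct markers none was called. The part of these cells in the fall of the members was not tested. The gap in mean macrophage sum was narrowest at CT12, as was that of the members: CON and SD means were 1044 and 647.5 CPM at CT4, 1373 and 744.5 at CT8, 1236 and 959 at CT12, 1221 and 851 at CT16, 1325 and 951 at CT20 and 1386 and 833 at CT24. The mean sums of the lymphocyte list at CT12 were 96.2 and 58.7 CPM, and their gap was narrowest at CT20, at 97.01 and 63.79.

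In kidney the members were lower by a smaller amount. Averaged over time, 8 of 44 tested members were lower and none higher, against 2.12% lower and 0.181% higher among all 21528 genes. The median log2 fold change was -0.35 over the members and 0.01 over all genes. The called members were Kif15 (-0.60 ± 0.12, adjusted p = 0.00619), Bub1 (-0.55 ± 0.13), Top2a (-0.53 ± 0.11, adjusted p = 0.00999), Cdk1 (-0.45 ± 0.12), Kif4 (-0.43 ± 0.09), Racgap1 (-0.42 ± 0.10), Plk1 (-0.42 ± 0.11) and Mcm5 (-0.29 ± 0.06). Top2a ranged from 24.4 to 37.2 CPM around 29.8 in CON and from 12.2 to 34.6 around 20.2 in SD, so the ranges overlapped widely. A replicate block kept 6 of these 8 calls and lost Bub1 and Plk1, and leaving out 1 library kept as few as 5, with Cdk1 also lost. Mki67 was at -0.33 ± 0.11 (adjusted p = 0.151) and Ccnb1 at -0.47 ± 0.14 (adjusted p = 0.109). Bub1b, Ect2, Kif20b and Kif23 had small positive estimates, 0.03 to 0.15, and did not pass. The kidney labels contradict themselves in 20 of 24 libraries, whose titles do not match their characteristics. Titles were followed here, and every kidney result rests on that choice.

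The kidney difference was widest at CT24 and CT4. The median member log2 fold change was -0.64 at CT4, -0.30 at CT8, -0.15 at CT12, -0.15 at CT16, 0.06 at CT20 and -0.92 at CT24. At CT24, 8 members were called lower, against 0.265% of all genes: Kif18b (-1.46 ± 0.25, adjusted p = 0.0226), Ube2c (-1.45 ± 0.28), Anln (-1.22 ± 0.25), Tpx2 (-1.18 ± 0.24), Plk1 (-1.05 ± 0.21), Mki67 (-0.94 ± 0.18), Racgap1 (-0.93 ± 0.19) and Mcm3 (-0.81 ± 0.16). Mki67 was at 43.6 and 44.7 CPM in CON and at 27.2 and 19.5 in SD at that time, while at CT20 it was at 38.6 and 41.7 in CON and at 49.7 and 42.0 in SD. The summed CPM of the 41 mitotic members at CT24 was 381 and 395 in CON and 260 and 244 in SD, and at CT4 it was 320 and 328 in CON and 255 and 255 in SD. Leaving out any 1 of the 4 CT24 libraries left 0 members called at that time. The joint test called 4 of 44, Kif18b, Kif22, Mki67 and Top2a (0.725% of all genes), and 0 to 2 members with any 1 of these CT24 libraries left out. Without CT4 or without CT24, 1 member was called in the averaged comparison.

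No kidney member was rhythmic by JTK_CYCLE in CON (0.164% of all genes) or in SD (0%), with 4 members at an unadjusted p below 0.05 in each (7.10% and 7.46% of all genes). None differed in rhythm (0% of all genes), with 16 members unadjusted (4.06% of all genes). In kidney, 3 of 4 tested macrophage markers and 3 of 10 lymphocyte markers were lower (2.12% of all genes). Sums of the lymphocyte list were 37.6 to 68.0 CPM in CON and 27.7 to 43.0 in SD, with Ptprc at means of 35.3 and 24.2. Clec4f, Vsig4 and Marco of the macrophage list were under 0.1 CPM at the median, and the part of these cells was not tested. Some members stood far higher in kidney than in liver. Kif23 was at 4.40 CPM per kilobase in CON kidney and at 0.474 in CON liver, and Ect2 at 5.50 and 2.68. Of the pathway lists, 5 of 43 mitotic, 4 of 42 replication, 2 of 21 G1 and 1 of 17 inhibitor genes were lower in kidney and none was higher. Among all kidney genes tested, 2.12% were lower and 0.181% higher.

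**Figure D4:**
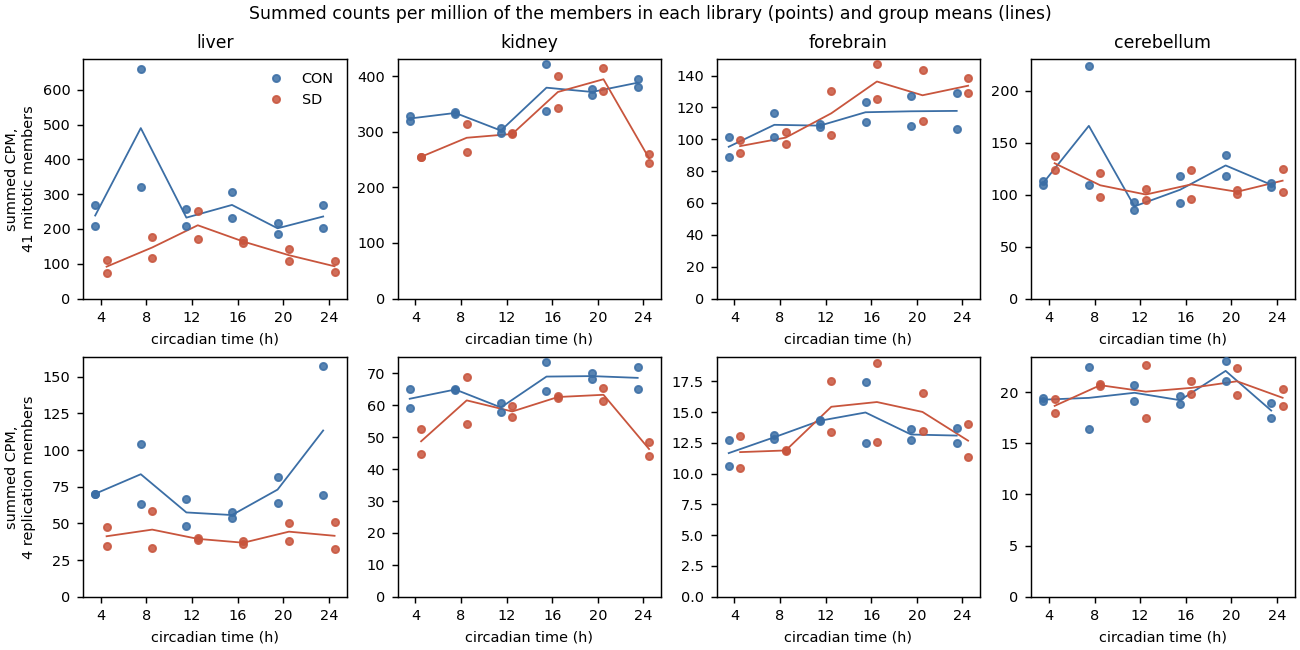
Summed CPM (y axis, from 0, each panel with its own scale) of the 41 mitotic members (top) and the 4 replication members (bottom) in each library by circadian time (x axis, h), CON in blue and SD in red, with lines through means of 2 libraries. SD lies below CON in liver at most times and in kidney at CT4 and CT24, and the groups intermingle in both brain regions apart from 1 CON cerebellum library at CT8.

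In both brain regions no member was called in the comparison averaged over time. In forebrain none of 43 tested members was called (0.0303% of all genes), 2 had an unadjusted p below 0.05 (6.41% of all genes), and the median log2 fold change was 0.09, with 10 estimates negative. DESeq2 also called none. Mki67 ranged from 3.90 to 7.90 CPM in CON and from 3.59 to 8.21 in SD (0.14 ± 0.12). The joint test called none (0% of all genes). Most members were scarce there, as Cdk1 was at 0.0753 CPM per kilobase in CON forebrain and at 1.92 in CON liver.

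In cerebellum none of 39 tested members was called (0% of all genes, also none in the joint test, 0%), 4 had an unadjusted p below 0.05 (3.41% of all genes), and the median was -0.16. DESeq2 called none. Mki67 ranged from 2.97 to 28.4 CPM in CON and from 3.43 to 4.98 in SD. Its highest value came from CON CT8 replicate 1, which stood apart from the other cerebellum libraries, with 702 Mki67 reads against 159 in replicate 2. At CT8, 4 of 39 members were called lower, but so were 9.73% of all genes. Without CT8 the median over the members was -0.00 in 38 tested members. Hepatocyte genes summed to over 100 CPM in 5 of 12 CON and 9 of 12 SD cerebellum libraries, up to 2775 CPM, and in 1 and 2 of 12 forebrain libraries, up to 303.5 CPM. The part of liver RNA in the brain values of the members was not tested.

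The SD effect itself was compared between tissues in 1 model over all 96 libraries. It was more negative in liver than in kidney for 9 of 45 members (1.82% of all genes). These were Kif23 (a difference of -1.25 ± 0.21 on the log2 scale, adjusted p = 0.000118), Kif20b (-1.21 ± 0.21, adjusted p = 0.000118), Cenpe (-0.94 ± 0.25), Cenpf (-0.92 ± 0.26), Aurkb (-0.87 ± 0.26), Espl1 (-0.85 ± 0.24), Prc1 (-0.82 ± 0.23), Cdca8 (-0.79 ± 0.22) and Racgap1 (-0.63 ± 0.18). Mki67, at -0.78 ± 0.24, missed the threshold (adjusted p = 0.0533). Against forebrain, the effect was more negative in liver for 32 of 45 members (3.14% of all genes), with Ccnb1 at -2.09 ± 0.42 and Kif2c at -1.86 ± 0.43. Against cerebellum it was so for 20 of 45 (2.55%), with Ube2c at -1.49 ± 0.42 and Cdk1 at -1.46 ± 0.33. No member had a called difference in the other direction. The 3 comparisons share the liver libraries.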

How the data were processed

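The authors deposited raw counts, 1 whole number for each gene and library. Per the study's methods and the submitters' processing notes, the authors trimmed paired-end reads with Trim Galore 0.6.4, aligned them to GRCm38 with HISAT2 2.1.0, kept high mapping qualities with SAMtools 1.9 and counted reverse-stranded pairs with featureCounts 1.6.4. Reads that map equally well to near-identical genes are largely removed by that filter. Exons of Ccna2, Plk1, Cdc20, Ube2c, Cdca8, Kif22, Kif4, Nusap1, Kif20a, Prc1 and Ncapg overlap a gene on the other strand, and counting used strand. Overlap with the 5248 counted features that lack an Ensembl identifier was not checked.

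Counts were fitted per tissue with edgeR 4.0.16 (TMM, filterByExpr, quasi-likelihood F-tests): condition plus time, then each of 12 groups per tissue, then cosine and sine terms with condition. Benjamini-Hochberg adjustment ran over all genes tested. The JTK_CYCLE procedure was written anew and run on CPM over 12 libraries per condition, whereas the study used the MetaCycle package on TPM. Tissues were compared in 1 fit of 96 libraries. DESeq2 1.42.0, library totals alone, no filter, a replicate block, and fits without each library or time were alternatives. Scripts were tested on simulated data. Groups came from sample titles. The study calls the 2 replicates biological and the labels do not name the animals, so p-values set a difference against the spread between these samples. At single times the groups of a tissue share an estimate of that spread.

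Members and lists were chosen with earlier results of these data known. Values are given in full for the most abundant member per kilobase of each role, the 8 largest called liver changes, members called in another tissue or at single times (at most 8 each), and Mki67, Top2a, Cdk1, Ccnb1 and Mcm2. Of the pathway lists, the 2 largest called changes each way and 6 set genes are given.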

Additional observations from a re-analysis of the deposited data

Results flagged for a closer look

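The response of the members to SD differed between liver and the other tissues when the difference itself was tested by edgeR. Against kidney 9 members differed, led by Kif23 (-1.25 on the log2 scale), Kif20b (-1.21) and Cenpe (-0.94). Against forebrain 32 members differed, led by Ccnb1 (-2.09), Kif2c (-1.86) and Kif14 (-1.59). Against cerebellum 20 members differed, led by Ube2c (-1.49), Cdk1 (-1.46) and Espl1 (-1.41). In each case the SD effect was more negative in liver. Without the liver libraries CON CT8 replicate 1 and CON CT24 replicate 2 and the cerebellum library CON CT8 replicate 1 the counts were 6, 32 and 19, a choice made after seeing the data.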

How the results depend on the processing

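With 2 libraries per condition and time, single-time counts moved most, and the effect of depth was not tested. The time-averaged liver count stayed between 32 and 42 members under the alternatives run: 40 of 44 members were called by DESeq2 and 42 without a filter or with library totals alone, where the median of all genes moved to -0.13 and that of the members to -1.20. Leaving out 1 library gave 39 to 41, and 39 of the 40 calls were kept in every such fit. Leaving out 1 time gave 32 to 41, and 32 were kept throughout. A replicate block gave 40 members in liver, 6 in kidney (Bub1 and Plk1 lost), and 0 in forebrain and in cerebellum. The deviations of same-numbered CON and SD libraries correlated over 0.1 in 2 of 6 pairs in liver, 4 in kidney, 2 in forebrain and 3 in cerebellum (-0.355 to 0.461), so the numbers were not taken to pair them. Leaving out 1 library in turn gave 20 to 34 members in the joint liver test (20 without SD CT8 replicate 1), 0 to 7 at CT4 (0 without CON or SD CT4 replicate 2), 0 to 25 at CT8 (0 without SD CT8 replicate 1, 3 without CON CT8 replicate 1 or SD CT8 replicate 2), 0 to 11 at CT24 (0 to 262 genes in all at CT8, 0 to 289 at CT24), 5 to 12 in kidney on average, 0 at kidney CT24 and 0 to 2 in the joint kidney test. Without CON CT8 replicate 1 and CON CT24 replicate 2 together, chosen after seeing the data, the joint liver test gave 19, CT8 1 and CT24 0. With library totals alone the counts were 30 for liver against kidney (2945 genes in all), 23 at liver CT8 (246), 14 at liver CT24 (309), 2 in the joint kidney test (53) and 1 at kidney CT24 (21). Without a filter they were 37, 40 and 40 at liver CT4, CT8 and CT24 (649, 930 and 1102 of 32589 genes in all), 26 for the liver rhythm difference (409 in all), 24 in kidney on average (1043 of 36128), 37 in the joint kidney test (2705), 34 at kidney CT24 (1044) and 6 in the joint cerebellum test (3552 of 37212). DESeq2 gave 16 for liver against kidney (2054 in all), 19, 32 and 25 at liver CT4, CT8 and CT24 (186, 499 and 480), 1 for the liver rhythm difference (4), 17 in kidney on average (706), 28 in the joint kidney test (694) and 27 at kidney CT24 (304). The kidney average gave 1 without CT4, 4 without CT8, 15 without CT20 and 1 without CT24, and none of its 8 calls was kept without every time in turn. Rhythm counts in liver were 2 in CON and 22 in SD by the cosinor fit, and 1 in SD on TMM-scaled CPM. The cause of these changes was not tested. Of the log2 fold changes not called, that of Aurka in liver was 0.0634 without CT8, 0.0182 without both libraries and -0.0901 to 0.0276 with 1 library left out. That of Bub1b in kidney was -0.104 without CT4, -0.00453 without CT16 and -0.0492 to 0.142 with 1 library left out. That of Ect2 in kidney was -0.0213 without CT12 and -0.00683 to 0.0676 with 1 library left out.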
